A study of Mus musculus with 5 samples.

Results

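Gas1, Ddit4 and Ndrg1 are genes of growth arrest and cell stress, and their RNA was compared between Erbb2-transfected and parental mouse fibroblasts. They are 3 of the 18151 features measured (genes, and probes without a single gene name), and each was represented by 1 of 20205 probes, namely the probe annotated with that gene symbol alone. They were selected on their measured log2 ratios between the cell lines, on all 5 arrays. Those ratios are therefore given as a description and were not tested.

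NIH3T3 is an immortalised mouse fibroblast line, and the transfected line is NIH3T3 that constitutively overexpresses human ERBB2, a growth factor receptor kinase also known as HER-2/NEU, from the cytomegalovirus promoter. Both lines were grown in medium with fetal calf serum. The labels name no empty-vector control, and they do not say whether the transfected cells were a clone or whether the preparations were separate cultures. Every array carried cDNA of both lines in different dyes: A1, A2 and A3 of preparation A, and B1 and B2 of preparation B, with transfected cDNA in Cy3 on A1, A2 and B1 and in Cy5 on A3 and B2.

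Values are log2 ratios of transfected over NIH3T3 cells, so that -1 is a halving and 1 a doubling. The direction is likely rather than settled, because it rests on Cy5 being the numerator of the deposited ratios; read the other way, each value keeps its size and changes its sign. A mean is that of the 2 preparations, with the SD between them. Dye orientations were averaged first, so neither this SD nor the limma p-value between the lines includes the spread between orientations. The arrays held between 5368 and 17463 values, and their number limits the precision. There was no probe for Erbb2 alone (0 probes), so the transgene did not serve as a check of the labels. A ratio of 2 channels gives no level, so the fibroblast identity of the lines could be set only against ratios. Of 5 fibroblast markers tested, Col1a1, Col1a2 and Fn1 were lower at -4.93, -3.97 and -4.61, while Vim (0.47) and S100a4 (-0.01) did not pass. In the lists for epithelium, endothelium, leukocytes and adipocytes, 2 markers could be tested, and Krt19 (0.19) and Flt1 (0.16) did not pass.

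Gas1 encodes a protein tethered to the cell surface that was found as a gene switched on in serum-starved fibroblasts; it restrains entry into the cell cycle and acts as a co-receptor for Hedgehog ligands, and it is related to the receptors for the GDNF family. Ddit4, also called REDD1, is induced by hypoxia, glucocorticoids, DNA damage and endoplasmic reticulum stress and restrains the growth-promoting kinase complex mTORC1 through the TSC proteins. Ndrg1 encodes a cytoplasmic protein that is induced by hypoxia, iron depletion and differentiation, is repressed by Myc proteins and is phosphorylated by the kinases SGK1 and GSK3.

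The genes lie on separate chromosomes of the mouse assembly GRCm38.p6. Gas1 (gene ID 14451) occupies chr13:60174405-60177535, Ddit4 (gene ID 74747) chr10:59949675-59951770 and Ndrg1 (gene ID 17988) chr15:66929318-66969641. Promoter sequences of 2 of the 3 genes were at hand from RefSeq on that assembly. The 250 bases before the start of Gas1 (chr13:60177536-60177785, minus strand) and of Ddit4 (chr10:59951771-59952020, minus strand) are shown. No such sequence was at hand for Ndrg1, so it has no comparison here. Capitals mark the letters ACGTG and GCGTG, the core of the site bound by hypoxia-inducible factors, and CCAAT, a common promoter element, on either strand.

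Gas1: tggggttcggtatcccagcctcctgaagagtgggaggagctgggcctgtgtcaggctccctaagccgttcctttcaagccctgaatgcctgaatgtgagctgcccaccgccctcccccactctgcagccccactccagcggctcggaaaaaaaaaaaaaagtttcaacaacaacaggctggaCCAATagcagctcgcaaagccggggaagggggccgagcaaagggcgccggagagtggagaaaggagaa
Ddit4: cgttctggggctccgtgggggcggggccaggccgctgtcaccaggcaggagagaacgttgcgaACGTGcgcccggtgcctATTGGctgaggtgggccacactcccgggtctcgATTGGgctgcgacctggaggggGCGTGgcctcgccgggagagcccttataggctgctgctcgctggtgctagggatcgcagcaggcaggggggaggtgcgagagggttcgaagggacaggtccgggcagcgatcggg

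The Ddit4 window held ACGTG with its first base 187 bases before the start and GCGTG with its first base 115 bases before it. It also held ATTGG, which is CCAAT on the strand opposite to the one printed, at 170 and 137 bases. In the Gas1 window the letters CCAAT stood 68 bases before the start, and ACGTG and GCGTG had 0 matches. Among 32851 mouse promoter windows of the same length, 16.6% held ACGTG, 28.2% GCGTG, 38.6% either of these and 33.8% CCAAT. Guanine and cytosine made up 70% of the Ddit4 window and 58.8% of the Gas1 window, against a median of 52.4%. A match describes the letters and is no evidence of a bound site.

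Gas1, the growth arrest gene, had log2 ratios of -3.24 on A1, -1.88 on A2 and -2.15 on A3, against -0.74 on B1 and -0.08 on B2. It was thus below 0 on 5 of 5 arrays, but strongly so only in preparation A, and the arrays of the preparations did not overlap. The mean was -1.38 ± 1.37 (SD, n = 2), a 2.61-fold lower level in transfected cells, with single arrays from 9.43-fold to 1.06-fold lower. In RNA of a whole culture, fewer cells with a transcript and less of it per cell cannot be told apart. Of the 4892 features that could be tested, having a value for each dye orientation in each preparation, 13.4% had negative values on all arrays that measured them, 24.3% had preparations that did not overlap, and 99.8% had a smaller SD between preparations than Gas1. Within its array, the Gas1 value on A1 had 0.54% of all values below it and that on B2 had 44.8%, so on B2 Gas1 lay in the middle of the distribution.

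Ddit4, the mTORC1 inhibitor, had no value on A1. Its log2 ratios were -1.74 on A2, -1.51 on A3, -0.96 on B1 and -1.64 on B2. All 4 values were below 0, B1 being the one nearest to it, and the preparations overlapped. The mean of -1.46 ± 0.23 (SD, n = 2) is a 2.75-fold lower level in transfected cells, and the arrays spanned 1.94-fold to 3.33-fold. Ddit4 had the smallest spread of the 3 genes, with between 1.87% and 2.62% of the values of each array below it.

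Ndrg1 differed in direction from the other two. It had log2 ratios of 0.87 on A1, 1.23 on A2, 0.90 on A3, 1.96 on B1 and 1.52 on B2, all above 0, where 10.9% of the tested features lay above 0 on every array with a value. The arrays of preparation B were higher than those of preparation A, with no overlap. Preparations that did not overlap, in either direction, were found for 24.3% of the tested features. Its mean was 1.36 ± 0.54 (SD, n = 2), a 2.56-fold higher level in transfected cells, with arrays from 1.83-fold to 3.88-fold. On A1, 532 of 5368 values ranked at or above Ndrg1, whereas on B1 it was the value at rank 35 of 17463 from the top.

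**Figure D1:**
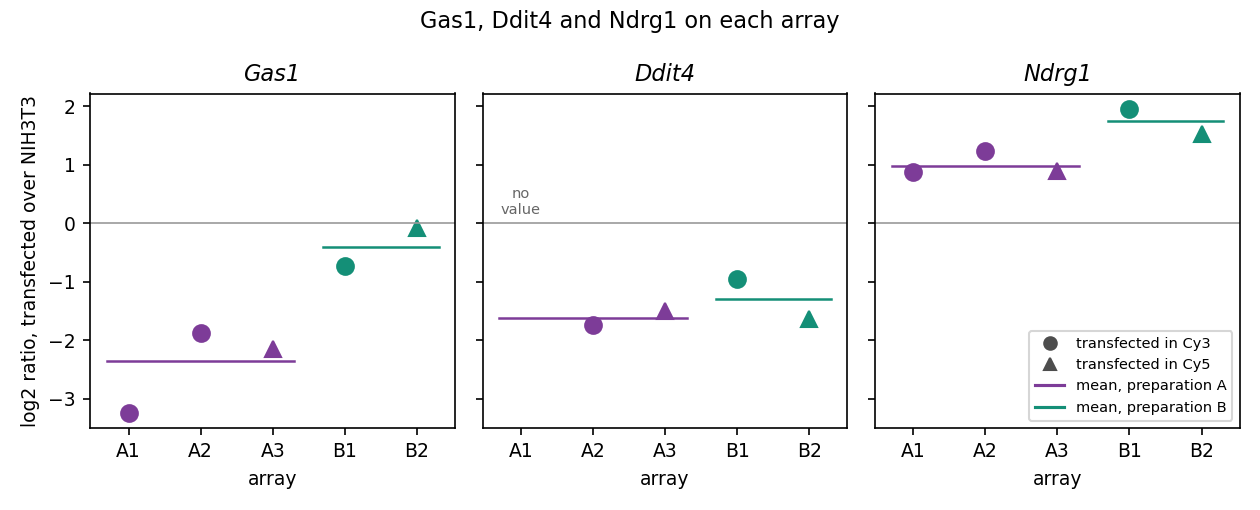
Log2 ratios of transfected over NIH3T3 cells (y axis) of Gas1, Ddit4 and Ndrg1 on each array (x axis), with circles for transfected cDNA in Cy3 and triangles for Cy5, and lines for the mean of each preparation after averaging its dye orientations. Gas1 lies between -3.24 and -1.88 in preparation A and between -0.74 and -0.08 in preparation B, Ddit4 lies below 0 on the 4 arrays that measured it, and Ndrg1 lies above 0 on all 5.

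As background to these values, 332 of 4892 features (6.79%) differed between the lines by limma at an adjusted p under 0.05, with 222 (4.54%) lower and 110 (2.25%) higher in transfected cells. Nothing about the 3 genes is read from these shares, since they were selected on the same contrast. A mean at or below -1 was found for 2.88% of the tested features and one at or above 1 for 1.04%. By mean ratio Ddit4 ranked 56 and Gas1 63 from the lowest, and Ndrg1 ranked 14 from the highest.

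The values were also tested for a dye effect and for a difference between preparations. Neither was the contrast by which the genes were chosen, but the same array values entered that choice. A gene whose ratio followed the dye was less likely to be chosen, so the dye result is a description and no independent check. A dye effect was found by limma for 29 of the tested features (0.593%), and for 645 (13.2%) before adjustment. None of the 3 genes was among the 29. The difference of transfected in Cy5 minus transfected in Cy3 was 0.52 ± 0.43 (SE) for Gas1, -0.23 ± 0.43 for Ddit4 and -0.28 ± 0.37 for Ndrg1, with adjusted p of 0.638, 0.861 and 0.787. A p above the threshold does not show that there was no dye effect.

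Between preparations, 1 of 4892 features (0.0204%) differed by limma at an adjusted p under 0.05, and 330 (6.75%) had an unadjusted p under that limit. The difference of preparation B minus A was 1.93 ± 0.43 (SE) for Gas1, with an unadjusted p of 0.000439 and an adjusted p of 0.197, so the split seen in its array values did not pass over all features. It passed without array A1 (adjusted p = 0.0383, difference 1.60) and without array A2 (adjusted p = 0.000136, difference 2.28), where 25 features passed in each case. It did not pass without A3 (adjusted p = 0.998, difference 1.82) or without the dye term (adjusted p = 0.879, difference 2.01). Without B1 or without B2, preparation B kept 1 array, and the difference was 2.07 and 1.82. A failure to pass here does not show that the split was absent. For Ndrg1 the difference was 0.78 ± 0.37 (adjusted p = 0.726) and for Ddit4 0.32 ± 0.43 (adjusted p = 0.965).

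**Figure D2:**
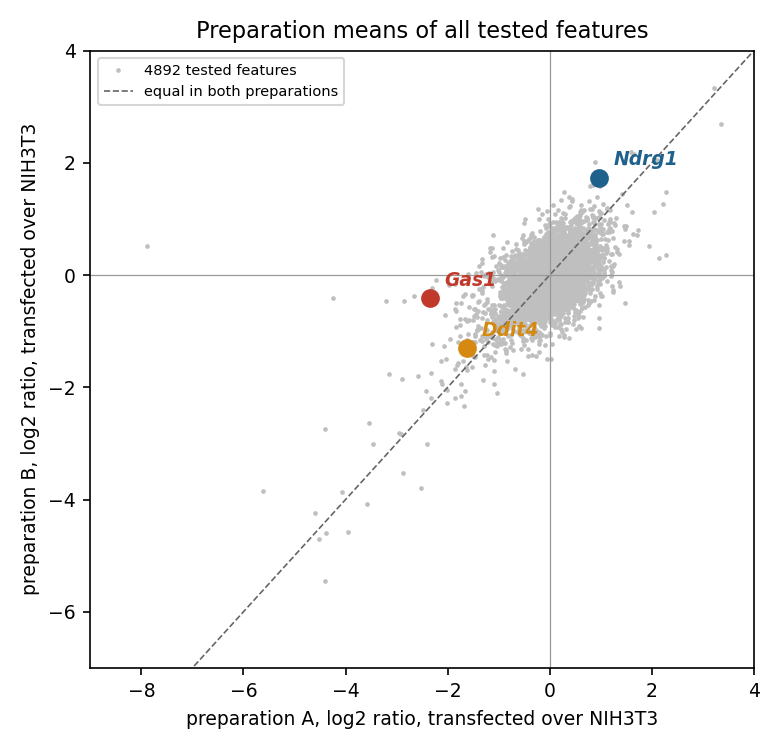
Mean log2 ratio in preparation A (x axis) against preparation B (y axis) for the 4892 tested features (grey), with Gas1, Ddit4 and Ndrg1 in colour and a dashed line where both preparations are equal. Ddit4, at -1.62 and -1.30, lies near the line, while Gas1, at -2.35 and -0.41, lies above it, as does Ndrg1, at 0.97 and 1.74.

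The depth behind single values is visible only in part. With 1 scaling constant per array, many deposited values were logarithms, to base 2, of the quotient of whole numbers no larger than 300 (tolerance 6e-07). Between 19.1% of the values on B1 and 49.8% on A2 were of this kind, against 1.35% to 1.77% after the constant was shifted. Of the 14 values of Gas1, Ddit4 and Ndrg1, only that of Gas1 on B2 did so, with the ratio 16 to 23 before scaling. The intensities themselves could be any common multiple of these numbers, and the part of weak signal in the near-zero value on B2 was not tested.

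Close relatives were sparsely measured. Of the growth arrest-specific genes, which share a mode of discovery and not a protein family, Gas7 had -1.26, -1.63, -0.45, -0.15 and -0.01 on A1, A2, A3, B1 and B2. Like Gas1 it was below 0 on all 5 arrays and nearer to 0 in preparation B, but it did not pass (mean -0.51 ± 0.61, SD, n = 2). Gas5, a noncoding host of small nucleolar RNAs, had 0.31, -1.61, 0.28, 0.57 and 1.00 and did not pass either. Gas2, an actin-associated protein gene, had -0.73, -0.01, 0.09 and -0.56 on A1, A2, B1 and B2. Gas8, Gas2l1 and Pmp22 (known as Gas3) had values on B1 alone, of 0.98, 1.05 and 0.41. Gas6 and Ddit4l, the paralogue of Ddit4, were on the array without a value.

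Of the Ndrg family, Ndrg3 had -0.61, -0.22, -0.12, -0.54 and -0.95 on A1, A2, A3, B1 and B2. These were all below 0, where Ndrg1 was above 0 on every array, and Ndrg3 did not pass (mean -0.51 ± 0.34, SD, n = 2). Ndrg2 had -0.26 and -0.40 on A1 and A2 and 0.26 on B1. The kinase genes Gsk3b (-0.28) and Sgk2 (0.15) did not pass.

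In the list of growth arrest genes other than Gas1, 2 of 7 tested members fell, 0 rose and 5 did not pass, with a median of -0.51. Over all 3134 genes tested, 5.33% were lower and 2.17% higher, with a median of -0.04. Rbl2, a relative of the retinoblastoma protein that is abundant in resting cells, had -1.74, -1.92, -2.81, -1.39 and -2.98, and fell with -2.25 ± 0.10 (SD, n = 2; adjusted p = 5.7e-05 by limma). The Rbl2 values with transfected cDNA in Cy5 (A3, B2) were further below 0 than those in Cy3, a gap outside that SD. Gadd45b, a stress-inducible inhibitor of growth, fell with -0.95 ± 0.18 and was not called without array A3, B1 or B2, nor after scaling of the arrays. The cyclin-dependent kinase inhibitor genes Cdkn1a and Cdkn2c had 0.16 and 0.04 and did not pass.

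For Hedgehog and GDNF reception, where Gas1 acts, 0 of 4 tested members passed (median -0.23). Ptch1, the Hedgehog receptor and itself a target of the pathway, had -0.06, -0.47, -0.89, -1.18 and -0.37, below 0 on every array, with a mean of -0.68 ± 0.14 (SD, n = 2; adjusted p = 0.0762 by limma). Gfra2, a GDNF family receptor and a distant relative of Gas1, had 0.77, 1.46, 1.08 and 1.37 on A1, A2, B1 and B2. It had no value on A3 and was not tested.

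Among 11 tested genes of mTORC1 signalling, on which Ddit4 acts, 1 rose (9.09%), 0 fell and 10 did not pass (median 0.05). Over all genes tested, 2.17% were higher and 5.33% lower. Akt1, a kinase upstream of the TSC proteins, had 1.03, 1.19, 0.41, 1.05 and 0.54 and rose by 0.78 ± 0.02 (SD, n = 2; adjusted p = 0.0449 by limma). The Akt1 values were higher with transfected cDNA in Cy3 (A1, A2, B1) than in Cy5 (A3, B2), a gap outside that SD. Akt1 was not called without array A3, B1 or B2, nor after scaling or quantile normalization of the arrays. Mtor, the kinase itself, had 0.53, 0.61, 0.27 and 1.22 on A2, A3, B1 and B2, and Rptor, its partner in the complex, had values from 0.21 to 0.59. Eif4e, the cap-binding factor controlled by mTORC1, ranged from 0.13 to 1.91. These last 3 had positive values throughout and did not pass. Tsc2 had 0.18 on A2 and -0.11 on B1.

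Of the hypoxia-inducible list, which holds both Ddit4 and Ndrg1, 6 of 16 other tested members fell (37.5%), 0 rose and 10 did not pass. The median of the list was -0.44. Over all genes tested, 5.33% were lower and 2.17% higher. This list too was written with earlier results of these data known. It also holds genes of the hypoxia-inducible factor and its control, such as Hif1a, Arnt, Egln2 and Vhl. Hif1a is among the 6 that fell. Lox, which crosslinks collagen, fell with -4.73 ± 1.26, and Ero1a, an oxidase of the endoplasmic reticulum, with -1.77 ± 0.77 (SD, n = 2). Pfkp, Ldha and Aldoa, enzymes of glycolysis, fell with -1.38, -0.98 and -0.89. Hif1a, a subunit of the hypoxia-inducible factor, had -0.27, -1.39, -0.32 and -1.10 on A2, A3, B1 and B2. It fell with -0.77 ± 0.09 (adjusted p = 0.0465 by limma). Its values were further below 0 with transfected cDNA in Cy5 (A3, B2) than in Cy3 (A2, B1), a gap outside that SD. Ddit4 lay on the side of these 6 genes, and Ndrg1 on the opposite side. The count was 3 without array A3, without B1, without B2 or after scaling of the arrays, and 4 after quantile normalization. Aldoa and Hif1a were not called under any of these, Ldha was not called without A3, without B2 or after scaling, and Pfkp was not called without B1. Vegfa (-0.16) and P4ha1 (-0.23) did not pass. Neither did Car12 (0.67) and Eno2 (0.16), the 2 of these 16 members with a positive mean.

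In the remaining lists 0 genes passed by limma at an adjusted p under 0.05, out of 7 tested in the Myc network, 6 p53 targets, 5 genes of the integrated stress response and 2 of the glucocorticoid response. Their medians were 0.08, -0.13, 0.09 and -0.17. The regulator genes Myc, Mycn, Trp53, Sgk1, Tsc1 and Rheb had no probe for that gene alone and were not measured. Of regulators of the 3 genes, Atf4, which induces Ddit4 under stress, had 0.19, 0.25, 0.30, 0.46 and 0.26, above 0 on every array, and did not pass. Nr3c1, the glucocorticoid receptor gene, was measured at 0.70, 0.15 and -0.86 on A2, B1 and B2. Dusp1, a glucocorticoid-inducible phosphatase, was below 0 on 5 arrays at -0.60 ± 0.25 and Ccng1, a p53 target, likewise at -0.53 ± 0.10 (SD, n = 2). Neither passed. Over all lists, 8 of 58 tested genes fell (13.8%) and 1 rose (1.72%), where 5.33% of all genes tested were lower and 2.17% higher. The lists were written with earlier results of these data known, so these counts are a description.

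**Figure D3:**
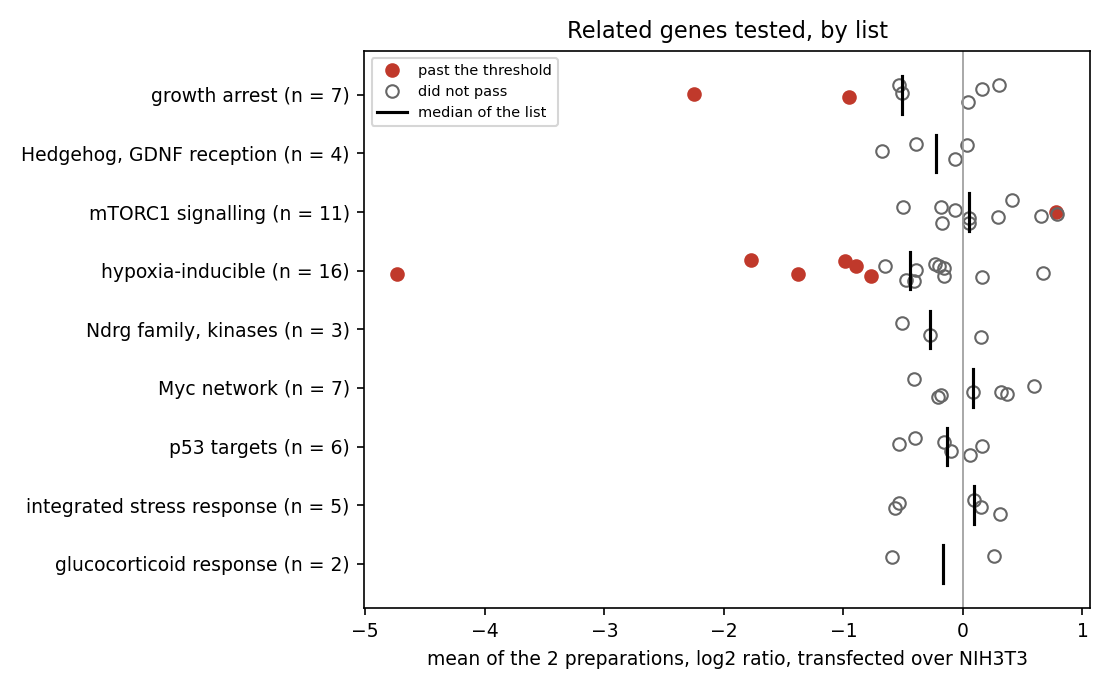
Mean log2 ratio of transfected over NIH3T3 cells (x axis) of each tested gene in the 9 lists of related genes (y axis, with the number tested), without Gas1, Ddit4 and Ndrg1; filled points are genes with an adjusted p under 0.05 by limma and black bars are medians. The hypoxia-inducible list shows 6 filled points below 0, the growth arrest list 2, and mTORC1 signalling 1 above 0.

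The named genes most like each of the 3 in pattern were found by the root mean square difference of log2 ratios over the arrays. Nearest to Gas1 over 5 arrays were Tmem238, Neat1, Tspan31 and Col6a1, with differences of 0.386 to 0.615 against a median of 2 over 2006 genes. Tmem238, a transmembrane protein gene, had -2.54, -1.75 and -1.80 in preparation A (A1 to A3), against -0.44 and 0.10 in preparation B (B1, B2). Col6a1, a chain of type VI collagen, had -2.01, -1.72 and -1.83 against -0.24 and -0.07. Neat1, a noncoding RNA of nuclear paraspeckles, and Tspan31, a tetraspanin gene, were also lower in preparation A than in B. This follows from how the 4 genes were picked and is no separate result.

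Nearest to Ddit4 over 4 arrays were Slc44a1, Sh3d19, Cyb5a and Fth1, with differences of 0.154 to 0.242 against a median of 1.52 over 3106 genes. Slc44a1, a choline transporter gene, had -1.60, -1.66, -0.98 and -1.41 on A2, A3, B1 and B2, and Fth1, the ferritin heavy chain gene, had -1.44, -1.39, -0.60 and -1.56. In both, B1 was nearest to 0 among these 4 arrays, as for Ddit4. This likeness too follows from how the genes were picked and is no separate result. Nearest to Ndrg1 over 5 arrays were Arl11, Prdx2, Stag3 and Oaf, with differences of 0.442 to 0.47 against a median of 1.45. Prdx2, a peroxiredoxin gene, had values from 0.85 to 1.58, its highest on A2 and not on B1. The differences for Ndrg1, over 2006 genes and 5 arrays, and for Ddit4, over 3106 genes and 4 arrays, cannot be ranked against each other.

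**Figure D4:**
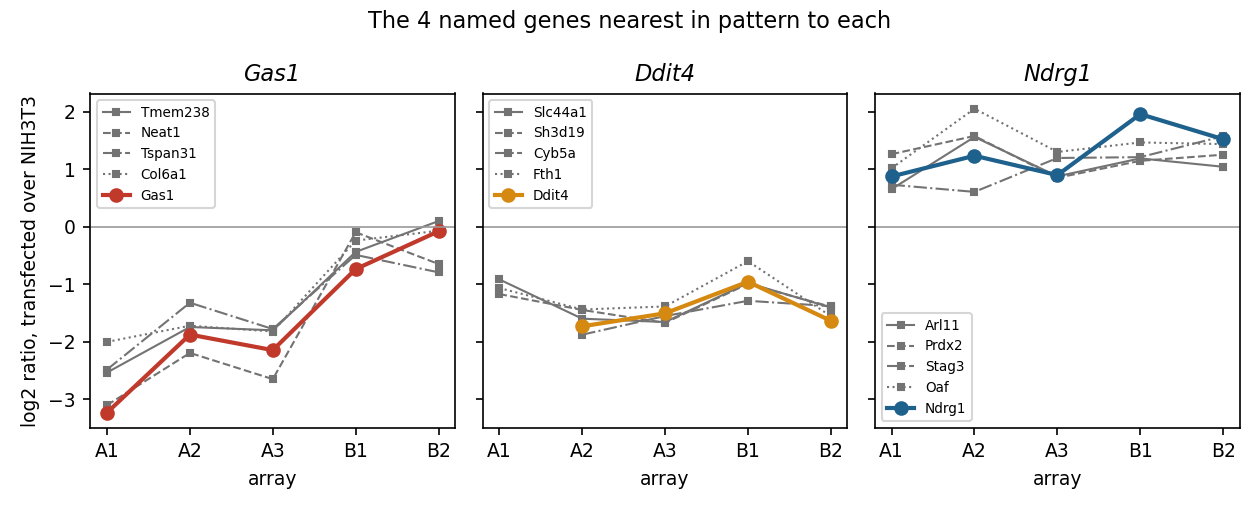
Log2 ratios of transfected over NIH3T3 cells (y axis) on each array (x axis) for Gas1, Ddit4 and Ndrg1 (coloured) and the 4 named genes nearest to each in pattern (grey). The genes beside Gas1 lie lower on A1 to A3 than on B1 and B2, those beside Ddit4 lie below 0 on every array with a value, and those beside Ndrg1 lie above 0.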

How the data were processed

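RNA of both cell lines was hybridised to 5 cDNA arrays. Per the labels, the authors scanned them with a GenePix scanner, read them with GenePix Pro 3.0, subtracted background from mean intensities and scaled each array to a median ratio of 1. The deposited values are log2 ratios, as the match to ratios of whole numbers shows. How values came to be left empty is not given in those sources. Values of arrays with transfected cDNA in Cy3 were sign-turned, probes of 1 gene symbol (11723 of 20205) were averaged, and dye orientations were averaged within each preparation. The 4892 features with a value for each orientation in each preparation entered limma (version 3.58.1, R 4.3.3; lmFit, then eBayes), and p-values were adjusted by Benjamini-Hochberg over all of them. Dye (with a preparation term) and preparation (with a dye term) were tested on the 5 arrays. The p-values between the lines measure the spread between the preparation means. Those for dye and for preparation measure the spread between arrays. Either spread may be technical. The procedure was tested on simulated data.

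The members and lists were chosen with earlier results of these data known. Genes named are all measured family members and listed regulators, per list at most 6 called members (with fewer than 2 called, at most 3 of 1 sign), and the 4 nearest in pattern to each of the 3 genes. Gsk3b, Sgk2, Cdkn1a, Cdkn2c, Vegfa, P4ha1, Car12, Eno2 and the genes of the other observations were chosen after their values were seen. Alternatives covered averaging, centring, scaling, normalization, probe summary, variance estimate, threshold and each array. Plots were made in Python 3.11.15 with matplotlib 3.10.9.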

Additional observations from a re-analysis of the deposited data

Results flagged for a closer look

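Of 41 named genes with 4 or 5 array values, 4 had a single array far from the rest by Dixon's criterion, which chance meets in about 5% of groups. None of Gas1, Ddit4 and Ndrg1 was among them. For Gas5 the value on A2 was -1.61, and the others lay between 0.28 and 1.00. Ei24, a p53 target without a value on A3, had -2.09 on B2 against -0.39 to -0.10. Fn1 had -4.01 on A2 against -4.72 to -4.61, and Flt1 had 0.53 on A2 against 0.01 to 0.07.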

How the results depend on the processing

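The mean log2 ratios of Gas1, Ddit4 and Ndrg1 kept their sign under every averaging, centring, scaling, normalization, probe and left-out-array alternative that gave a value. They ranged from -1.62 to -1.21, from -1.63 to -1.29 and from 1.25 to 1.499. They moved by less than 1 SD between preparations, a loose limit for Gas1, whose SD was 1.37 beside a mean of -1.38. No alternative left out a whole preparation, and Gas1 had -2.35 in preparation A and -0.41 in preparation B. Without array A2, Ddit4 had no value in that dye orientation of preparation A. Counts of calls moved more. The 332 features past the threshold (222 lower, 110 higher) became 124 (94 and 30) after scaling to equal median absolute deviation, 193 (136 and 57) after quantile normalization, 564 (336 and 228) with only probes measured in both orientations of both preparations, 120 (94 and 26) at an adjusted p under 0.01 and 548 (222 higher) under 0.1. On 5 arrays with a dye term 170 were higher. Leaving out each array gave 198 to 498, with 113 to 306 lower and 41 to 192 higher. The 9 calls over all related lists, 6 in the hypoxia-inducible list and 2 in the growth arrest list became 4, 3 and 1 after scaling and also at an adjusted p under 0.01, and ranged over left-out arrays from 4 to 13, 3 to 7 and 1 to 2. Rbl2, Lox and Ero1a were called under all 15 alternatives. The dye effect count of 29 was 7 without the preparation term, 65 after centring and 2 to 256 without single arrays, where the dye difference of Ddit4 ranged from -0.68 to 0.23. The preparation count of 1 was 6 after centring and 1 to 25 without single arrays. The preparation difference then ranged from 1.60 to 2.28 for Gas1 and from -0.13 to 0.78 for Ddit4. With the repetition number as a replicate block in place of the dye term it was 2.15 for Gas1 (adjusted p = 0.747) and 0.69 for Ndrg1, and changed no call. A1 minus A2 and B1 minus B2 correlated at -0.17 over 3960 features. A1 and A2 share a dye orientation while B1 and B2 do not, so this correlation cannot decide whether the repetition numbers pair the arrays. The cause of these changes was not tested, except that left-out arrays changed which features could be tested.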

Other observations

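Some related genes outside the test had large ratios on the arrays that measured them, and all genes here were named after their values were seen. Sesn3, a stress-inducible restrainer of mTORC1, had -1.51 on B1 and -3.34 on B2, and Txnip, which restrains glucose uptake, had -1.23 and -1.74 on the same arrays. Bnip3, a hypoxia-inducible gene of mitochondrial turnover, had -1.94, -1.42 and -0.71 on A1, A2 and B1, and Egln1, an oxygen-sensing hydroxylase, had -0.72, -0.63 and -0.62. Pfkfb3, a hypoxia-inducible regulator of glycolysis, had 1.17 on A3 and 0.73 on B2. Of the untested members of the hypoxia-inducible list with values, 7 were below 0 on every array that measured them, 3 were above 0 and 6 were mixed. Foxo1 had -1.21, -0.49 and -1.24 on A2, B1 and B2. Btg1, an antiproliferative gene, was above 0 with 1.06, 0.90 and 0.74 on A1, A2 and B1.

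The separation of the preparations seen for Gas1 also appeared in some genes of the related lists, where 24.3% of all tested features had preparations that did not overlap. The values of Trib3 were -1.07, -0.51 and -1.46 in preparation A (A1 to A3) against 0.04 and -0.08 in preparation B (B1, B2), and Ppp1r15a had -0.99, -0.48 and -1.21 against -0.32 and 0.14. Mlxipl, a sugar-sensing transcription factor, went the other way, with 1.36, 1.87 and 1.15 against -0.46 and 0.09. None of these 3 passed the test between cell lines.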
